A study of Mus musculus with 6 samples.

Results

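The type I interferon receptor and the JAK-STAT proteins that it uses were described here by the transcripts of 7 mouse genes, taken by gene name from a table of 29097 genes: the ligand gene *Ifnb1*, the receptor chains *Ifnar1* and *Ifnar2*, the kinases *Jak1*, *Jak2* and *Tyk2*, and the transcription factor *Stat2*. All 7 were in the table, and 6 of them were among the 10440 genes with a mean of at least 1 FPKM (fragments per kilobase of gene and per unit of sequencing depth), which were the genes tested. *Ifnb1*, with a mean of 0.733 FPKM, was not among them and is given by its read counts. The libraries came from CD45+CD11b+Ly6G+ neutrophils sorted from the peripheral blood (PB) of wild-type C57BL/6 male mice, 8 weeks of age. In the ligature-induced periodontitis (LIP) group, which the labels call Lig, the second molars of both jaws were tied with silk on both sides for 14 d, and the Ctrl group was left without ligatures for the same 14 d. Each group had 3 Smart-seq2 libraries, each from the pooled cells of 5 mice, so the spread between libraries is a spread between pools. The comparison asks whether periodontitis at a distance changes the transcripts of circulating neutrophils.

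Type I interferons, IFN-β and the IFN-α family, bind a receptor of 2 chains on almost every cell type. IFNAR1 carries the kinase TYK2 and IFNAR2 carries JAK1, and the activated kinases phosphorylate STAT2 and other STATs, which join IRF9 and switch on interferon-stimulated genes in the nucleus. JAK2 is not a kinase of this receptor in the usual account and serves the receptors of IFN-γ and of several growth factors. In neutrophils the same kinases also pass on signals of G-CSF, GM-CSF and IL-6.

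Total read counts per library lay between 52186555 and 57262379. The composition of the libraries differed strongly between groups: haemoglobin genes took 14.6% or more of the counts in Ctrl libraries and 1.55 to 1.61% in LIP libraries. The 21 mature neutrophil markers were all called higher in LIP (summed level 18030 to 21781 FPKM in Ctrl and 58667 to 63950 FPKM in LIP libraries, led by *S100a9*). The 3 genes of the sort gate were also called higher, but all of them except *Ptprc* are among those 21 markers. All 12 B cell markers were called lower, from a summed 11003 to 11985 FPKM to 1820 to 1833 FPKM, with *Cd74* the most abundant. All 12 T cell markers, led by *Lck* on the mean of both groups, and all 9 erythroid markers tested, led by *Hba-a1*, were also called lower, with medians of -2.50 and -3.01 on the log2 scale. The 7 platelet markers, led by *Ppbp*, were called higher (summed 778 to 1031 FPKM in Ctrl and 1664 to 1938 FPKM in LIP), as were 6 of 7 monocyte and dendritic cell markers tested, of which *Ly6c2* had the highest mean over both groups (summed 188 to 209 FPKM and 261 to 274 FPKM). Of the NK cell markers, led by *Gzma*, 4 of 6 were called higher, and of the eosinophil and basophil markers, led by *Siglecf*, 1 of 5. The summed level of the NK cell markers overlapped between groups (189 to 242 FPKM in Ctrl and 197 to 220 FPKM in LIP). The lymphocyte markers were above 0 in both groups. In these bulk libraries, fewer cells of a type and less RNA per cell cannot be told apart, and the part of these shifts in the values of the interferon pathway genes was not tested.

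Values per library are given as CPM after TMM scaling, that is, read counts scaled to a common library size, and fold changes, standard errors and adjusted p-values are from edgeR's quasi-likelihood test over all genes tested, with Benjamini-Hochberg adjustment. A gene was called when its adjusted p was under 0.05. Of all genes tested, 53.6% were called, 26.5% higher and 27.2% lower in LIP, and the median log2 fold change was -0.09. Of the 6 pathway genes tested, 3 were called higher in LIP (*Ifnar2*, *Ifnar1* and *Jak1*) and 0 lower. The 3 LIP libraries lay above the 3 Ctrl libraries for 4 of the 6, where 30.3% of all genes did so. Their median log2 fold change was 0.48.

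**Figure D1:**
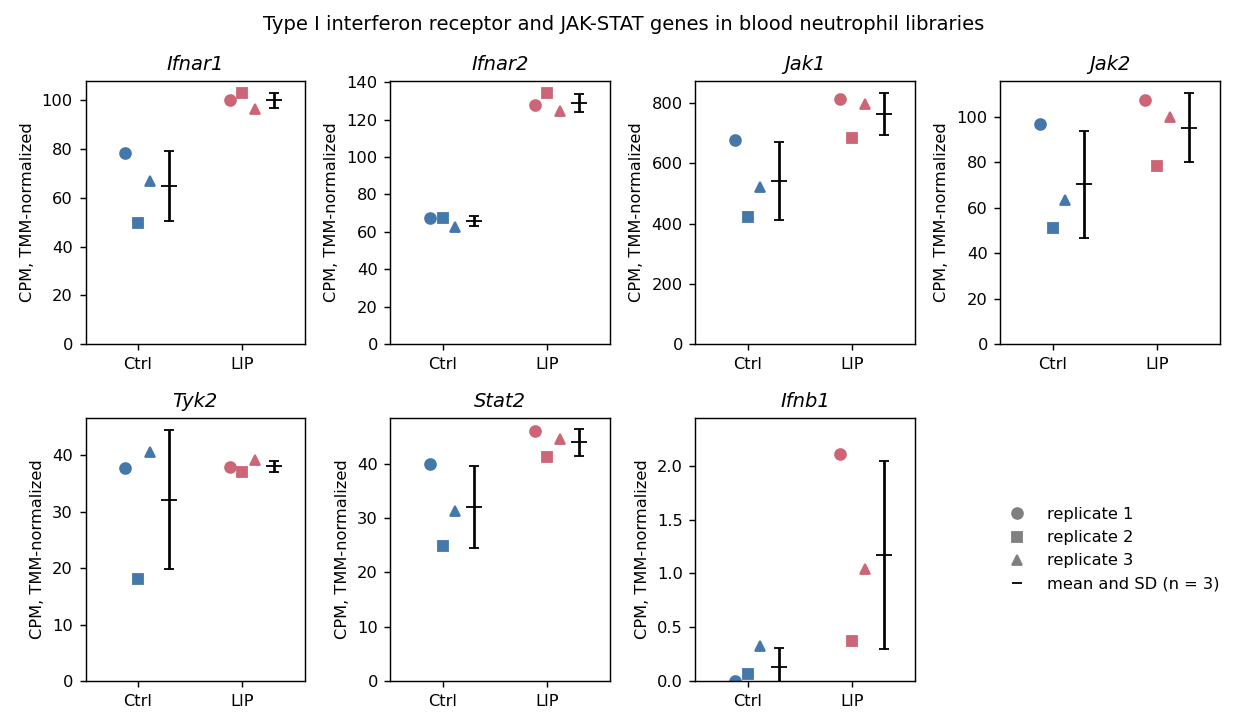
TMM-normalized CPM of the 7 genes in each library (points, shaped by replicate number) with the mean and SD of the 3 libraries of a group beside them; each vertical axis starts at 0 and differs between panels, and the lower SD bar of *Ifnb1* in Ctrl is cut at 0. The groups stand apart without overlap for *Ifnar1*, *Ifnar2*, *Jak1* and *Stat2*, and Ctrl replicate 2 (square) is the lowest library for *Ifnar1*, *Jak1*, *Jak2*, *Tyk2* and *Stat2*.

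The gene of the high-affinity receptor chain, *Ifnar2* (ENSMUSG00000022971, GRCm38 chr16:91372783-91405589, plus strand), rose with the smallest standard error. Its level was 67.4, 67.4 and 62.9 CPM in the Ctrl libraries and 128, 134 and 125 CPM in the LIP libraries. The Ctrl values lay within a few CPM of each other, and all LIP values lay far above them. The mean rose from 65.9 ± 2.61 to 129 ± 4.81 CPM (SD, n = 3 libraries each), a 1.96-fold difference (log2 fold change 0.97, standard error 0.111, adjusted p = 4.09e-05). Its fold change was above that of 83.4% of all genes tested.

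The other chain gene, *Ifnar1* (ENSMUSG00000022967, chr16:91485238-91507441, plus strand), lies further along the same chromosome, with the gene of the shared IL-10 receptor chain, *Il10rb*, between the 2 chains. It was measured at 78.1, 49.7 and 66.9 CPM in Ctrl and at 100.2, 103 and 96.5 CPM in LIP libraries. The groups did not overlap, and the Ctrl libraries spread more widely than the LIP libraries. The mean rose from 64.9 ± 14.3 to 99.8 ± 3.16 CPM (SD, n = 3), a 1.54-fold difference (log2 fold change 0.62, standard error 0.162, adjusted p = 0.00829).

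The rise of *Ifnar2* was not shown to differ from that of *Ifnar1*. In FPKM, the ratio of *Ifnar2* to *Ifnar1* within a library was 1.54, 2.42 and 1.68 in Ctrl and 2.28, 2.33 and 2.31 in LIP libraries. The LIP libraries had almost one ratio, and Ctrl replicate 2 lay above all of them. The mean log2 ratio differed by 0.32 between groups (two-sided exact permutation p = 0.4, 0.7 after adjustment over the 3 ratios examined), by 0.52 without Ctrl replicate 2 and by 0.20 without Ctrl replicate 1. With 3 libraries against 3, this exact permutation test cannot go below p = 0.1.

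Of the promoters of the 7 genes, those of *Ifnar2*, *Ifnar1* and *Stat2* are shown because they hold one of the 2 motifs searched; those of *Jak1*, which also rose, and of *Jak2*, *Tyk2* and *Ifnb1* held neither. Each is the reference sequence of RefSeq (GRCm38.p6), 5′ to 3′ on the strand of the gene, from 250 bases before the annotated RefSeq start to 10 bases after it. Capitals mark a motif: for the receptor genes TTCNNNGAA, the core of the gamma-activated site that STAT dimers bind, and for *Stat2* GAAANNGAAA on the opposite strand, the core of the interferon-stimulated response element bound by the complex of STAT2 and IRF9.
*Ifnar2* at chr16:91372533-91372792, plus strand: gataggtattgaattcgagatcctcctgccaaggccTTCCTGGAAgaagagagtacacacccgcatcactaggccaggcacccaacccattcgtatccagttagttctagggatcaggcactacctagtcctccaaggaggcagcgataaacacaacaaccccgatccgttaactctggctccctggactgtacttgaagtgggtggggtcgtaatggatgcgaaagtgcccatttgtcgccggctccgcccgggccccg
*Ifnar1* at chr16:91484965-91485224, plus strand: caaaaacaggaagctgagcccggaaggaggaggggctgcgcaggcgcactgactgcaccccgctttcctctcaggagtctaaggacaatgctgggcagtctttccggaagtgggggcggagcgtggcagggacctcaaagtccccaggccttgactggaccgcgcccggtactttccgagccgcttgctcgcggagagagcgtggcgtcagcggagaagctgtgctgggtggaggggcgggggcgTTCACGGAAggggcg
*Stat2* at chr10:128270248-128270507, plus strand: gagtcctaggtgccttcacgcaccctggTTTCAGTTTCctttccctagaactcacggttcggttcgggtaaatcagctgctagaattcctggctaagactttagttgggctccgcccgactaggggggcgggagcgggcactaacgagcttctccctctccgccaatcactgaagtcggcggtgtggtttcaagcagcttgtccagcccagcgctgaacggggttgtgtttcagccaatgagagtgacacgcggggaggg
Relative to the start, the first base of the motif lay at -214 in *Ifnar2*, at -5 in *Ifnar1* and at -222 in *Stat2*. Searched on both strands in windows of 300 bases, TTCNNNGAA was in 2 of the 7 genes' promoters and in 8.30% of 32851 promoters, and GAAANNGAAA was in 1 of the 7 and in 3.44% of all. These matches describe the letters of the reference, and no binding was measured.

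Among the kinase genes, *Jak1* (ENSMUSG00000028530, chr4:101152367-101265282, minus strand), whose product serves interferon receptors and many other cytokine receptors, was called higher. Its level was 679, 424 and 520 CPM in Ctrl and 814, 683 and 796 CPM in LIP libraries. The lowest LIP library lay only just above the highest Ctrl library. The mean rose from 541 ± 129 to 764 ± 70.9 CPM (SD, n = 3), a 1.41-fold difference (log2 fold change 0.50, standard error 0.154, adjusted p = 0.0192). This call was lost without Ctrl replicate 3 (log2 fold change 0.47, adjusted p = 0.0652 in edgeR) and without LIP replicate 3 (0.47, adjusted p = 0.0554). The 3 genes that overlap *Jak1* had at most 0.288 FPKM on average.

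*Jak2* (ENSMUSG00000024789, chr19:29251828-29313080, plus strand) had 96.7, 51.1 and 63.6 CPM in Ctrl and 108, 78.4 and 99.9 CPM in LIP libraries. Ctrl replicate 1 lay above LIP replicate 2, so the groups overlapped. The means were 70.5 ± 23.6 and 95.3 ± 15.1 CPM (SD, n = 3), and the difference did not pass the test (log2 fold change 0.43, standard error 0.219, adjusted p = 0.117). Without Ctrl replicate 1 it passed, with a log2 fold change of 0.74 (adjusted p = 0.00764).

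*Tyk2* (ENSMUSG00000032175, chr9:21104068-21131243, minus strand), the kinase gene paired with IFNAR1, showed the smallest difference of the 6 genes tested. Its level was 37.8, 18.0 and 40.6 CPM in Ctrl and 38.0, 37.1 and 39.1 CPM in LIP libraries. Apart from Ctrl replicate 2, the 5 libraries lay between 37.1 and 40.6 CPM. The means were 32.1 ± 12.3 and 38.1 ± 0.985 CPM (SD, n = 3; log2 fold change 0.25, standard error 0.265, adjusted p = 0.453), and without Ctrl replicate 2 the log2 fold change was -0.02.

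The other kinase genes were also compared with *Jak1* within a library. The two-sided exact permutation test of 3 libraries against 3 cannot go below p = 0.1. It therefore cannot decide at the threshold of 0.05 whether either ratio differed between groups. The FPKM ratio of *Jak2* to *Jak1* was 0.205, 0.173 and 0.176 in Ctrl and 0.190, 0.165 and 0.180 in LIP libraries (log2 difference -0.05, two-sided exact permutation p = 0.7). The ratio of *Tyk2* to *Jak1* was 0.0585, 0.0446 and 0.0820 in Ctrl and 0.0491, 0.0571 and 0.0516 in LIP libraries (log2 difference -0.19, exact permutation p = 0.6), and both had an adjusted p of 0.7. The groups overlapped for both ratios, and the *Tyk2* ratio spread more widely in Ctrl (SD of the log2 ratio 0.44) than in LIP (0.11).

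*Stat2* (ENSMUSG00000040033, chr10:128270559-128292849, plus strand), the STAT that is largely devoted to type I and type III interferon signals, did not pass the test although its groups did not overlap. Its level was 39.9, 24.8 and 31.2 CPM in Ctrl and 46.0, 41.2 and 44.6 CPM in LIP libraries. The LIP libraries were close together, and the highest Ctrl library was just below the lowest of them. The means were 32.0 ± 7.59 and 43.9 ± 2.48 CPM (SD, n = 3; log2 fold change 0.46, standard error 0.190, adjusted p = 0.0633 in edgeR). Its adjusted p fell to 0.0169 without Ctrl replicate 1.

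The same libraries stood at the ends of the Ctrl range for most of these genes. Against the mean of the other 2 Ctrl libraries, replicate 2 was lower by -0.53 for *Ifnar1*, -0.49 for *Jak1*, -0.61 for *Jak2*, -1.08 for *Tyk2* and -0.49 for *Stat2* on the log2(CPM + 1) scale, whereas *Ifnar2* was at 0.05. Ctrl replicate 1 was above the mean of the others by 0.43 to 0.75 for these 5 genes. Across all genes tested that have an exon length in GENCODE M21, Ctrl replicate 2 had a median deviation of 0.18 over the shortest genes (lowest quartile of length) and -0.18 over the longest (top quartile), and Ctrl replicate 1 had -0.14 and 0.15. *Ifnar1*, *Jak1*, *Tyk2* and *Stat2* have 5926 to 7227 exon bases and belong to the top quartile, *Jak2* has 5030 and *Ifnar2* 3329. The part of gene length in the spread of these genes was not tested. In the LIP group too, replicate 2 was the lowest library for *Jak1*, *Jak2*, *Tyk2* and *Stat2*, but not for the receptor chains.

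**Figure D2:**
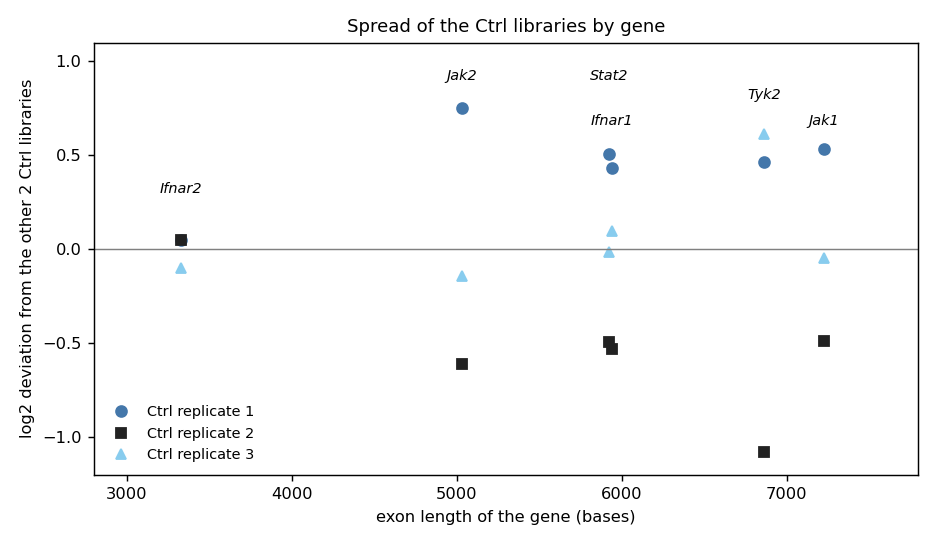
Log2 deviation of each Ctrl library from the mean of the other 2 on the log2(CPM + 1) scale (vertical axis), against exon length in bases (horizontal axis), for the 6 genes tested. Ctrl replicate 2 (squares) lies between -1.08 and -0.49 for every gene but *Ifnar2*, where all 3 libraries lie close to 0.

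The size and sign of these differences depended on how the libraries were scaled. Another scaling shifts all genes by nearly the same amount, so the place of a gene among all genes could hardly change with it. That place did move where the genes kept or the fit differed. *Ifnar2* was above 83.4% of genes under TMM, 76.1% with no filter beyond 1 read and 85.9% in limma on log2(FPKM + 1). Under library totals in place of TMM, the median of all genes moved by -0.32, and *Ifnar2* alone stayed called higher (log2 fold change 0.65). Library totals called 6065 of the 10440 genes tested, in either direction. Scaled on the mature neutrophil genes, which themselves rose with a median of 1.84 under TMM, the median of all genes moved by -1.75. All 6 genes were then called lower, from -0.78 for *Ifnar2* to -1.51 for *Tyk2*. This scaling called 9168 of the 10440 genes tested, in either direction. Against the median of all genes, *Ifnar2* stood at 1.06, *Ifnar1* at 0.72, *Jak1* at 0.59, *Stat2* at 0.55, *Jak2* at 0.53 and *Tyk2* at 0.34 under TMM. These distances were 1.06, 0.71, 0.59, 0.55, 0.52 and 0.33 under neutrophil scaling. Every rise or fall named here is therefore one relative to the bulk of genes in these libraries, and is under TMM unless another scaling is named.

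**Figure D3:**
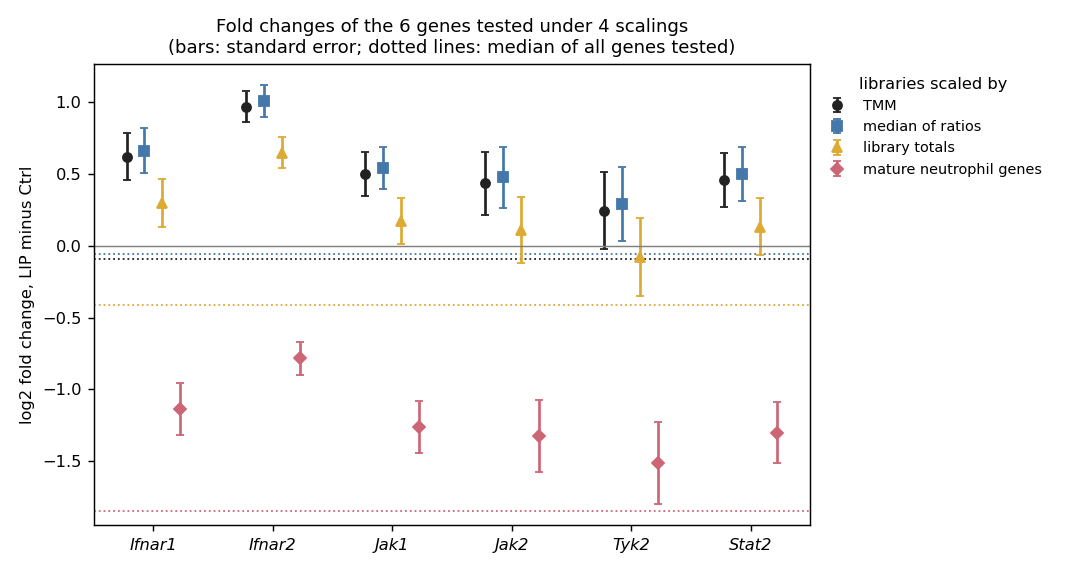
Log2 fold change of LIP over Ctrl (vertical axis) with its standard error for the 6 genes tested, under 4 scalings of the libraries; dotted lines give the median of all genes under the same scaling. The points move down together with the dotted lines, because a change of scaling shifts all genes nearly alike. All 6 genes lie above the median of all genes under each scaling, also where neutrophil scaling puts them below 0.

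In FPKM, a level per length that can be compared between genes, *Jak1* was the most abundant of the 7 transcripts in both groups, with 77.4 ± 19.7 in Ctrl and 88.1 ± 7.92 in LIP (SD, n = 3). *Ifnar2* followed with 20.4 ± 0.912 and 32.3 ± 1.25 FPKM, then *Jak2* with 14.5 ± 5.09 and 15.8 ± 2.45, *Ifnar1* with 11.3 ± 2.66 and 14.0 ± 0.446, *Stat2* with 5.57 ± 1.41 and 6.16 ± 0.330, *Tyk2* with 4.83 ± 1.89 and 4.61 ± 0.123, and *Ifnb1* with 0.176 ± 0.231 and 1.29 ± 0.967. The order was the same in both groups. In Ctrl, the ranges of *Ifnar2* and *Jak2*, of *Jak2* and *Ifnar1*, and of *Stat2* and *Tyk2* overlapped, and in LIP only those of *Jak2* and *Ifnar1* did. FPKM is scaled to library totals, so the mean of *Tyk2* is lower in LIP on this scale and higher on the TMM scale.

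*Ifnb1* (ENSMUSG00000048806, chr4:88522025-88522774, minus strand), the gene of IFN-β, had very few reads. Its counts were 0, 4 and 19 in the Ctrl libraries and 106, 19 and 49 in the LIP libraries, or 0, 0.0668 and 0.326 CPM against 2.11, 0.373 and 1.04 CPM. LIP replicate 1 held more reads than all other libraries together, and LIP replicate 2 had as many reads as Ctrl replicate 3. The count of 0 in Ctrl replicate 1 allows up to 3 reads, and 3 reads correspond to 0.0524 to 0.0575 CPM of the library totals, which covers counting error only. The mean was 0.131 ± 0.172 CPM in Ctrl and 1.17 ± 0.876 CPM in LIP (SD, n = 3), a difference of 1.04 CPM. Where low genes were kept in the fit with edgeR's own filter, the difference did not pass the test (log2 fold change 3.18, standard error 1.48, adjusted p = 0.142), so a difference in *Ifnb1* was not detectable beyond the spread between libraries. Without LIP replicate 1 the difference in means was 0.57 CPM. On library totals, Ctrl replicate 3 (0.363 CPM) lay above LIP replicate 2 (0.332 CPM).

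Of 17 other type I interferon genes looked for, 7 were in the table and 0 reached the level for testing. *Ifna2* had 36 reads in Ctrl replicate 3 and 0 in the other 5 libraries, and *Ifna9* had 19 reads in LIP replicate 1 and 0 elsewhere. The *Ifna* genes are near-identical copies, so their counts are uncertain. Reads of the other 5 genes numbered 18 or fewer in any library.

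The genes that work with the receptor were described from lists. The counts of each list stand beside 26.5% of all genes tested called higher, 27.2% called lower and a median of -0.09. Of 7 genes, namely further STATs, *Jak3* and *Irf9*, 4 were called higher and 0 lower (median 0.85 on the log2 scale). *Stat3*, which carries G-CSF and IL-6 signals, had 1.34 (adjusted p = 4.58e-06 in edgeR), and *Irf9*, the DNA-binding partner of STAT2, had 1.11 (adjusted p = 1.6e-05). The remaining calls, named after their values were seen, were *Stat6*, which carries IL-4 and IL-13 signals, with 0.94, and *Stat5b*, which carries growth factor signals, with 0.85.

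Of 18 genes that restrain the receptor or its kinases, 15 were tested, and 6 were called higher and 1 lower (median 0.51). Among the 6 was *Ptprc*, which is also a gene of the sort gate. *Socs3*, an inhibitor induced by STAT3, went from 136 ± 15.1 to 479 ± 36.5 CPM (SD, n = 3; log2 fold change 1.82), and *Ptpn1*, a phosphatase of JAK2 and TYK2, had 1.29. *Usp18*, which holds back signalling at IFNAR2, had 1.14, and *Ptpn6*, the phosphatase SHP-1, had 0.51. *Socs1*, the inhibitor of JAK kinases that interferons induce, was the one called lower, from 45.7 ± 2.30 to 31.2 ± 4.44 CPM (SD, n = 3; log2 fold change -0.55, adjusted p = 0.0149 in edgeR). Its call was lost without LIP replicate 2 (-0.46, adjusted p = 0.0582).

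Of 15 chains of other receptors that use JAK1, JAK2 or TYK2, 14 were tested, with 11 called higher and 2 lower (median 1.16). The common chain of the GM-CSF, IL-3 and IL-5 receptors, *Csf2rb*, had 2.16, the IL-13 receptor chain *Il13ra1* had 2.14 and the G-CSF receptor *Csf3r*, which is also one of the mature neutrophil markers, had 1.84. *Ifngr2*, the chain of the IFN-γ receptor that carries JAK2, had 1.09, its partner *Ifngr1* 0.33 and *Il10rb* 1.22. *Il2rg*, the common gamma chain that lymphocytes also use, was lower with -1.42, and *Il6st*, the gp130 chain, with -0.73 (adjusted p = 0.0464 in edgeR). The call of *Il6st* was kept in 1 of 6 fits with a library left out, the one without LIP replicate 1 (-0.97), and the adjusted p reached 0.163 without Ctrl replicate 1 (-0.57). That of *Ifngr1* was lost without Ctrl replicate 3 (adjusted p = 0.0586) and without LIP replicate 3 (adjusted p = 0.0663). The rise of *Ifnar2* was thus below the median of these receptor chains in size, a difference that was not tested. The lower *Il2rg* goes with the lower B and T cell markers given above, whose part in it was not tested.

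Of 30 interferon-stimulated genes, 28 were tested, with 20 called higher and 0 lower (median 1.01). *Oas3*, an enzyme that senses double-stranded RNA, had the largest difference with 1.88, followed by *Rtp4* with 1.77. This list is not independent of the study's interest in interferon, and several of its genes were known to be higher in these libraries when it was drawn up. Under scaling on the mature neutrophil genes, 1 gene of the 4 lists together was called higher and 50 lower, where 41 and 3 were under TMM. Of all 10440 genes tested, that scaling called 9168 in either direction.

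**Figure D4:**
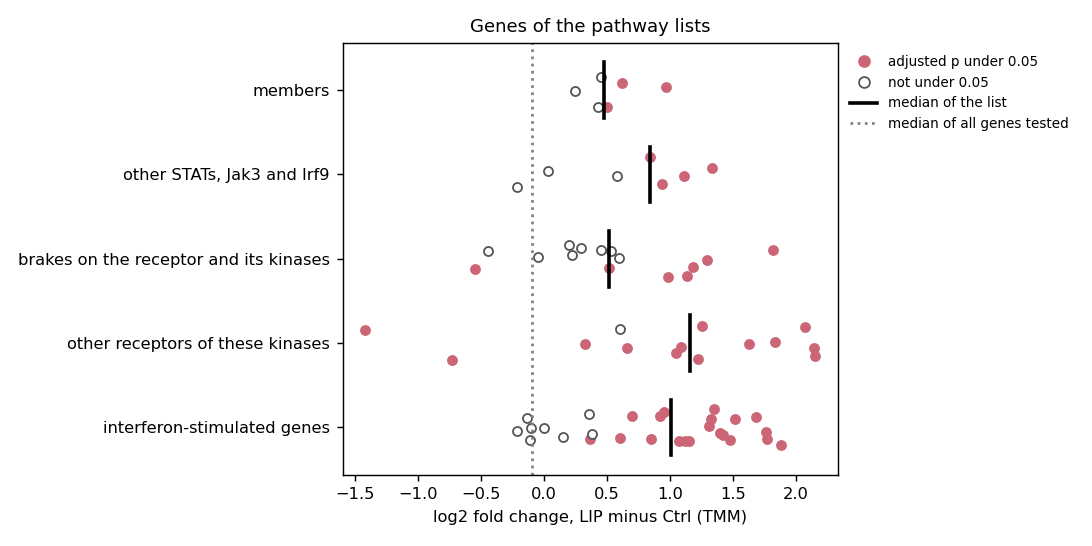
Log2 fold change of LIP over Ctrl under TMM (horizontal axis) for each gene tested of the 7 pathway genes and the 4 lists; filled points had an adjusted p under 0.05, black bars mark the median of a list and the dotted line that of all genes tested. The 6 pathway genes lie between 0.25 and 0.97, and the medians of the 4 lists between 0.51 and 1.16. Under scaling on the mature neutrophil genes, 50 genes of the 4 lists and all 6 pathway genes are called lower. That scaling calls 9168 of all 10440 genes tested, in either direction.

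The genes with the pattern most like that of each pathway gene were found by Pearson's r of log2(CPM + 1) over the 6 libraries among 3383 genes with at least 10 FPKM on average, given as a description because the points share 2 groups and the scaling. *Ifnar2* was followed most closely by *Cd82* and *Plbd1* (r at least 0.999 for both), and *Ifnar1* by *Sgpl1* and *Ino80c* (0.996 each). *Jak1* was closest to *Mtmr3* and *Gm10698* (0.991 each), *Jak2* to *Marchf1* (0.975) and *Gm10698* (0.967), and *Stat2* to *Gm10698* and *Il1a* (0.989 each). *Tyk2* was closest to *Tbk1* (0.971) and *Ppp2r5c* (0.966). *Gm10698* thus stood beside 3 of the 6 genes.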

How the data were processed

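Neutrophils of 3 Ctrl and 3 LIP pools were grouped by the sample labels. Raw counts for each gene and FPKM values made from them were deposited by the authors, on GRCm38 coordinates. The submitters' processing notes name cutadapt 1.9 and FastQC; the aligner, the counting tool and the use of strand are not given in the sources used here, so reads of a gene and of one overlapping it cannot be told apart. Smart-seq2 adds no molecular identifiers, and intervals and limits cover counting error only.

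Counts were tested with edgeR 4.0.16 (R 4.3.3) and no replicate block, for genes that reached 1 FPKM on average. TMM factors were computed from these 10440 genes, on library totals over all 29097 genes. The common biological coefficient of variation was 0.265, and no pair of libraries of the same group was alike within sampling noise. FPKM ratios within a library were compared by two-sided exact permutation tests. The fit was tested on simulated data in which a small part of the genes changed, up or down. That simulation held no shift in composition like the one between these groups, so it cannot speak to such a shift. Same-numbered libraries come from different mice, and their deviations over all genes tested correlated by at most 0.057. They were therefore not treated as pairs, but a link for single genes is not excluded.

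The pathway genes and all lists were chosen with earlier results of these data known. The lists leave out a gene that is not reported here. Named are every pathway gene, the up to 2 largest rises and falls called in each list, *Irf9*, *Socs1*, *Socs3*, *Usp18*, *Ptpn6*, *Ifngr1*, *Ifngr2*, *Il10rb* and *Csf3r* for their role, the 2 genes most alike each pathway gene, and the marker of each cell type with the highest mean FPKM over all libraries. Alternatives were DESeq2 1.42.0, limma 3.58.1 on log2(FPKM + 1) and log2(FPKM + 0.1), other scalings and filters, the block and leaving out each library. *Ifnb1* in CPM of library totals and without each library was added after seeing the data.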

Additional observations from a re-analysis of the deposited data

How the results depend on the processing

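*Ifnar2* was called higher under each alternative but one, and *Ifnar1* also whichever library was left out. Scaling on the mature neutrophil genes turned all 6 genes, to -1.14 for *Ifnar1*, -0.78 for *Ifnar2*, -1.26 for *Jak1*, -1.33 for *Jak2*, -1.51 for *Tyk2* and -1.30 for *Stat2*. It called 9168 of all 10440 genes in either direction, 0 of the 6 higher and 6 lower, and 1 gene of the pathway lists higher and 50 lower. Library totals gave log2 fold changes of 0.30 for *Ifnar1* and 0.17 for *Jak1*, neither past the threshold, and -0.079 for *Tyk2*. Under library totals, 1 of the 6 was called higher, and 34 list genes were called higher and 8 lower. Of all 10440 genes, 6065 were then called in either direction. The limma fits called 1 of the 6, with 0.31 and 0.34 for *Ifnar1* and 0.21 for *Jak1* at pseudocounts of 1 and 0.1, and 7 and 6 list genes lower. Both fits called 34 list genes higher, and they called 6259 and 6118 of all genes. *Jak1* was no longer called without the filter (0.53) or at a mean FPKM of at least 5 (0.33), where 3637 of all genes were called and *Tyk2* was not tested. *Stat2* passed with median-of-ratios factors (0.50). DESeq2 called 5 of the 6, adding *Jak2* (0.48) and *Stat2* (0.50), where 5806 of all genes were called. The replicate block also called 5, adding *Jak2* (0.47) and *Stat2* (0.48), although same-numbered libraries come from different mice. With the block, 5546 of all genes were called. For these settings the cause was not tested, beyond the shift of all genes that each scaling makes.

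With each library left out in turn, the log2 fold change ranged from 0.37 to 0.70 for *Jak1*, 0.27 to 0.74 for *Jak2*, 0.32 to 0.66 for *Stat2* and -0.022 to 0.45 for *Tyk2*. From 2 to 5 of the 6 were called higher, as were 38 to 43 list genes, and 1 to 3 list genes were called lower. Of all 10440 genes tested, 4674 to 5385 were called in either direction. The log2 difference in the *Ifnar2* to *Ifnar1* ratio ranged from 0.20 (without Ctrl replicate 1) to 0.52 (without Ctrl replicate 2), that in the *Jak2* to *Jak1* ratio from -0.095 to 0.028, turning sign without Ctrl replicate 1 and without LIP replicate 2 (0.0076), and that of *Tyk2* to *Jak1* from -0.40 to 0.039. At this depth *Ifnb1*, with 0 to 106 reads per library, stayed below the filter of a mean of 1 FPKM. It was kept by edgeR's own filter and without a filter. There it did not pass the edgeR test (log2 fold changes 3.18 and 3.16, adjusted p = 0.142 and 0.255).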
